A study of Rattus norvegicus with 9 samples.

Results

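A set of 9 genes of the insulin, FoxO and nutrient response were followed in rat cortical cultures labelled as neurons. The cultures were studied after oxygen-glucose deprivation (OGD), with and without Wnt3a plus Rspondin 1. They are the transcription factors Foxo1, Foxo3 and Foxo4, the receptors Insr and Igf1r, the adaptors Irs1 and Irs2, and the stress-responsive genes Txnip and Sesn3. They were chosen with earlier results of these data known and picked out by symbol. Each symbol matched 1 row, and the 9 genes are 9 of the 22050 genes in the tables. All 9 passed the filter on low counts, as did 13693 genes in all.

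The cells were labelled as neurons of the cortex of embryonic day 19 Sprague Dawley rats, and the 9 libraries of total RNA form 3 groups of 3. In OGD with Wnt3a plus Rspondin 1, the cultures underwent OGD and normoxia and received 100 ng/ml Wnt3a, a Wnt ligand, and 50 ng/ml Rspondin 1, a secreted enhancer of Wnt signalling, over 24 h. In OGD, glucose was removed at 1% oxygen for 4.5 h, followed by normoxia, with no added Wnt protein. In control, cultures were untreated. The length of the deprivation is stated only for the OGD group, no hour of harvest is stated, and a group with the proteins but without OGD was not analysed here. Whether replicates came from separate cultures or animals is not stated, so the p-values measure the spread between these libraries, which may be technical.

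In most animal cells, insulin and insulin-like growth factors bind the receptors encoded by Insr and Igf1r, which phosphorylate the adaptors IRS1 and IRS2 and so activate PI3-kinase and AKT. AKT phosphorylates FoxO proteins, which then leave the nucleus. When nutrients or growth factors are scarce, FoxO proteins stay in the nucleus and switch on genes of stress resistance, cell-cycle arrest, fuel use and protein breakdown. Their activity is thus set largely by phosphorylation and location, neither of which RNA levels measure.

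Total counts per library ran from 14285914 to 25048521, and the counts behind the 9 genes ran from 134 for Foxo4 in control replicate 2 to 12832 for Txnip in OGD replicate 2. Axin2, a direct target of Wnt/beta-catenin signalling, stood at 5.18, 5.30 and 5.72 FPKM in OGD with Wnt3a plus Rspondin 1, against 2.51, 2.24 and 2.02 in OGD. The labelled cell type was checked with a list of 12 neuron markers, all of them detected. Astrocyte and other glial markers were detected too, in control as well, so the libraries were not of neurons alone. The summed level of the 12 neuron markers was 519 to 673 FPKM in OGD with Wnt3a plus Rspondin 1, 517 to 696 in OGD and 3010 to 3150 in control. All 12 were lower in OGD than in control, with a median log2 change of -2.63. Astrocyte markers summed to 6540 to 6840 FPKM in OGD with Wnt3a plus Rspondin 1, 7030 to 7680 in OGD and 2930 to 3100 in control, and 9 of 11 rose in OGD against control while 1 fell. All 9 tested microglia and macrophage markers of 13 in the tables rose, with sums of 47.3 to 52.0 FPKM in OGD with Wnt3a plus Rspondin 1, 41.4 to 52.3 in OGD and 13.5 to 17.0 in control. Of the neural progenitor markers, 6 of 8 rose and 1 fell, with sums of 4030 to 4530 FPKM in OGD with Wnt3a plus Rspondin 1, 4010 to 4580 in OGD and 1050 to 1180 in control. Most of each sum was Fabp7, averaging 2740, 2740 and 815 FPKM in that order of groups. The oligodendrocyte lineage list had 6 of 11 higher and 3 lower, with sums of 1070 to 1150 FPKM in OGD with Wnt3a plus Rspondin 1, 1100 to 1110 in OGD and 436 to 523 in control. In the list of mural cells and fibroblasts, 3 of 7 rose and 3 fell, with sums of 645 to 765 FPKM in OGD with Wnt3a plus Rspondin 1, 676 to 891 in OGD and 102 to 126 in control. These sums were nearly all Tagln, averaging 684, 749 and 96.8 FPKM, so they do not stand for the list. In the endothelial list, Cldn5 was at 0 reads, 2 of 3 tested genes rose and 1 fell, and the sums were 15.1 to 15.6 FPKM in OGD with Wnt3a plus Rspondin 1, 15 to 16.8 in OGD and 29.8 to 34.2 in control. They were mostly Ramp2, the gene that fell, averaging 13.9, 14.6 and 31.1 FPKM. In these bulk samples, fewer cells of a type and less RNA per cell cannot be told apart, and the part of these marker shifts in the results on the 9 genes was not tested.

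The 3 FoxO genes were all higher in OGD than in control, by unequal amounts. Levels below are FPKM, fragment counts scaled by gene length and library total, given for replicates 1 to 3. Foxo4 (ENSRNOG00000033316), a FoxO factor encoded on the X chromosome, had 17.70, 18.27 and 20.28 FPKM in OGD with Wnt3a plus Rspondin 1, 19.42, 18.43 and 21.55 in OGD, and 3.62, 3.58 and 4.02 in control. Every library of both OGD groups lay far above every control library, and the OGD groups overlapped each other. The level of Foxo4 in OGD was 4.92-fold that in control, a log2 change of 2.30 ± 0.10 (± SE throughout, adjusted p = 1.03e-09). Of all tested genes, 1.4% had a larger log2 rise in that comparison.

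Foxo1 (ENSRNOG00000013397), a FoxO factor best known for its role in insulin-dependent gene control in liver and other tissues, had 28.03, 25.04 and 28.60 FPKM in OGD with Wnt3a plus Rspondin 1, 20.12, 18.00 and 18.15 in OGD, and 7.11, 6.38 and 7.13 in control. The 3 groups did not overlap: the libraries with both proteins were highest, OGD alone was between, and controls were lowest. Foxo1 rose by 1.36 ± 0.09 on the log2 scale in OGD against control, or 2.56-fold (adjusted p = 3.23e-08).

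Foxo3 (ENSRNOG00000000299), a FoxO factor linked in neurons to stress and survival, had 16.72, 15.22 and 20.85 FPKM in OGD with Wnt3a plus Rspondin 1, 21.74, 18.16 and 18.81 in OGD, and 11.94, 12.74 and 11.71 in control. Both OGD groups lay above the controls and overlapped each other. Its log2 change in OGD against control was 0.59 ± 0.12, or 1.51-fold (adjusted p = 0.000525).

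The promoter windows of Foxo1 and Foxo4 are shown because these are the FoxO genes with the larger rises, and that of Insr because it alone among the 6 windows matched held a FoxO binding element. They are RefSeq sequences on the rat build GRCr8, reach from 250 bases before to 50 bases after the annotated start, and are written 5′ to 3′ on the strand of the gene. Capitals mark the FoxO binding element, and windows without capitals held none of the motifs searched.
Foxo1, chr2:138462724-138463023, plus strand: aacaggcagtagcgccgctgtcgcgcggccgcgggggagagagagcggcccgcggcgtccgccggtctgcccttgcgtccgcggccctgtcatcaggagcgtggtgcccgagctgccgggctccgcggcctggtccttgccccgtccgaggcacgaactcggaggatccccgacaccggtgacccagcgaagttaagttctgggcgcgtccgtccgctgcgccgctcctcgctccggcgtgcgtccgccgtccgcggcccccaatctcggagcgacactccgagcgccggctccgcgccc
Foxo4, chrX:70425313-70425612, plus strand: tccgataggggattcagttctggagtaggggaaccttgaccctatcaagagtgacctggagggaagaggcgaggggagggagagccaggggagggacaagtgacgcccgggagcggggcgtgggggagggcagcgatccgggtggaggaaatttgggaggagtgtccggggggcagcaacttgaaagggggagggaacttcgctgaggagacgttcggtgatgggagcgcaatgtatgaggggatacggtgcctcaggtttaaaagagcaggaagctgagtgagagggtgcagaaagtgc
Insr, chr12:6128754-6129053, minus strand: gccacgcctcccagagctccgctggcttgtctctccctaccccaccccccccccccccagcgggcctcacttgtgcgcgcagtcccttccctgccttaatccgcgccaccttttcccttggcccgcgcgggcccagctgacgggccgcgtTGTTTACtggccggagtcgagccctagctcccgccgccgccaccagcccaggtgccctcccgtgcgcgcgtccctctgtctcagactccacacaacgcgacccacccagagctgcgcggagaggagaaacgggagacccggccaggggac

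Windows were matched for 6 of the 9 genes: Foxo1, Foxo4, Igf1r, Insr, Irs1 and Sesn3. The FoxO binding element GTAAACA, read as TGTTTAC on the other strand, occurred in 3.78% of all 33469 promoter windows of this length. In Insr it stands at base 151 of the window, 100 bases before the start, and the shorter forkhead core TAAACA, which 13.7% of windows held, is the same site. The E-box CACGTG, the core of the sites through which glucose-sensing factors act, was present in 6.42% of windows. The hypoxia response core ACGTG was present in 19.3% of windows. Igf1r held 1 E-box and 3 matches of the hypoxia core on the 2 strands, of which 2 overlap the E-box. The TCF/LEF element CTTTGAT, added to the search after the values of Foxo1 were known, occurred in 3.63% of windows and in none of the 6. All motifs were searched on both strands. The windows were rich in G and C, from 60.3% in Foxo4 to 78.0% in Igf1r, against a median of 51.7% over all windows. No match says only that these letters are not in the window, and Insr, with its match, did not pass the test in any comparison.

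**Figure D1:**
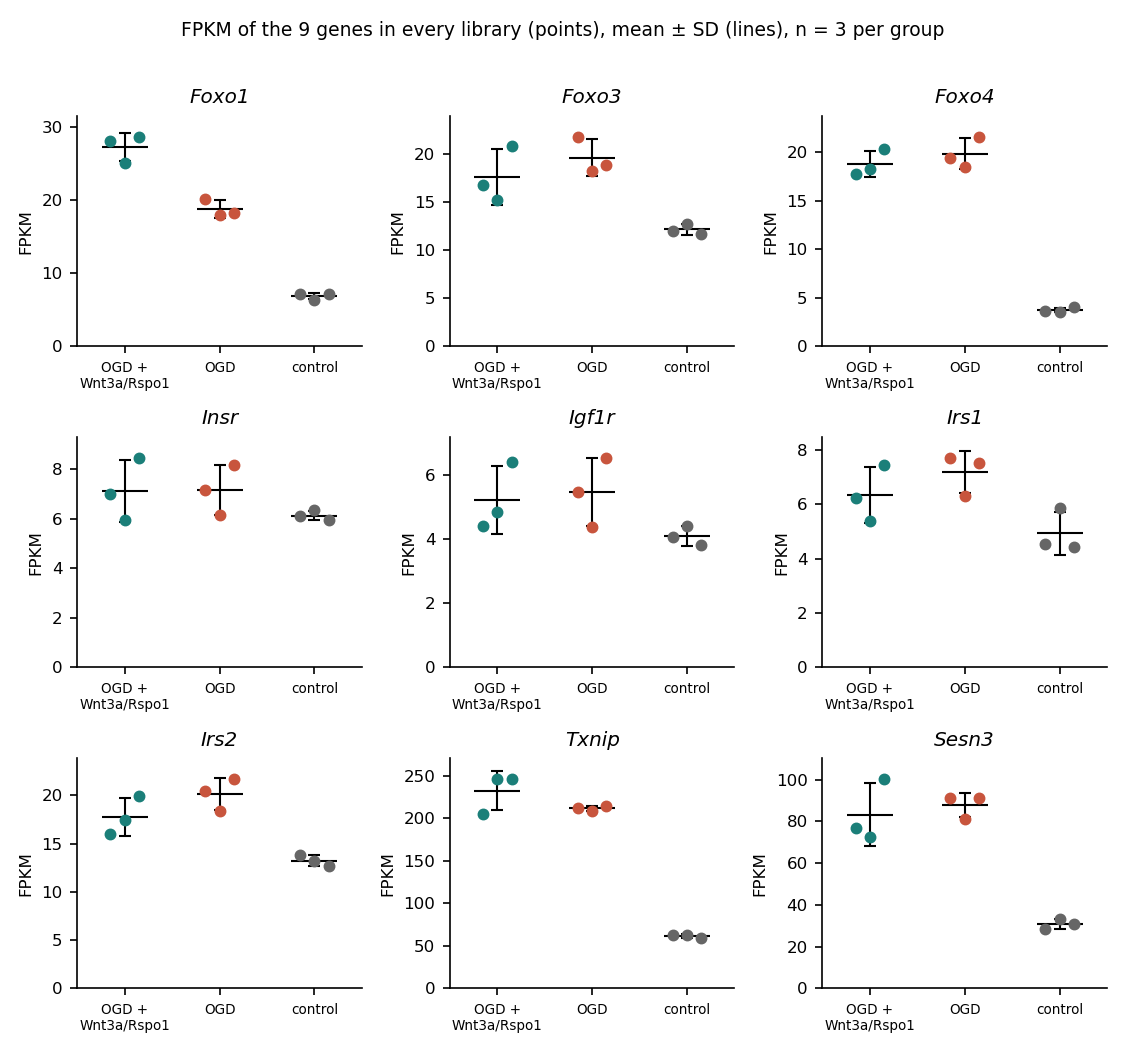
FPKM of each of the 9 genes in every library. Points are libraries, in replicate order within a group, and lines give the mean ± SD of 3 libraries for OGD with Wnt3a plus Rspondin 1 (left), OGD (middle) and control (right), with an axis from 0 in each panel. Foxo1 shows 3 separate levels, while Foxo4, Txnip and Sesn3 show both OGD groups far above control.

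Neither receptor gene passed the test in any comparison. Insr (ENSRNOG00000029986), the insulin receptor, had 6.98, 5.94 and 8.45 FPKM in OGD with Wnt3a plus Rspondin 1, 7.15, 6.15 and 8.15 in OGD, and 6.09, 6.34 and 5.95 in control. Igf1r (ENSRNOG00000014187), the receptor of insulin-like growth factors, had 4.41, 4.84 and 6.41 FPKM in OGD with Wnt3a plus Rspondin 1, 5.48, 4.39 and 6.53 in OGD, and 4.06, 4.42 and 3.82 in control. For both receptors the libraries of all groups overlapped, and the OGD groups were more spread out than the controls. The log2 change in OGD against control was 0.13 for Insr, with a 95% interval of -0.14 to 0.39 (adjusted p = 0.364). For Igf1r it was 0.33, with an interval of -0.02 to 0.67 (adjusted p = 0.0819). The Igf1r value passed the threshold when OGD replicate 2 was left out, at 0.47, and when OGD with Wnt3a plus Rspondin 1 replicate 3 was left out, at 0.34. The adjusted p of Igf1r ran from 0.0157 to 0.316 over the 15 alternatives.

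The adaptors, which carry the signal from the receptors to PI3-kinase, rose modestly in OGD. Irs2 (ENSRNOG00000023509) had 15.97, 17.46 and 19.89 FPKM in OGD with Wnt3a plus Rspondin 1, 20.43, 18.42 and 21.70 in OGD, and 13.80, 13.22 and 12.72 in control. Irs1 (ENSRNOG00000014597) had 6.22, 5.39 and 7.44 FPKM in OGD with Wnt3a plus Rspondin 1, 7.71, 6.30 and 7.53 in OGD, and 4.53, 5.85 and 4.42 in control. All OGD libraries of both adaptors stood above all controls, but Irs1 in OGD with Wnt3a plus Rspondin 1 overlapped the control range through its second replicate and control replicate 2. In OGD against control, Irs2 rose by 0.52 ± 0.09 on the log2 scale, or 1.43-fold (adjusted p = 0.000208). Irs1 rose by 0.46 ± 0.14, or 1.37-fold (adjusted p = 0.00998).

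Txnip and Sesn3 were the most abundant of the 9 genes per unit length in all 3 groups, and both rose. Txnip (ENSRNOG00000021201) encodes the thioredoxin-interacting protein, an alpha-arrestin that binds thioredoxin and lowers glucose uptake. It had 205.78, 246.30 and 246.57 FPKM in OGD with Wnt3a plus Rspondin 1, 211.88, 209.08 and 215.11 in OGD, and 62.90, 62.96 and 59.15 in control. Sesn3 (ENSRNOG00000008173) encodes sestrin 3, a stress protein that restrains mTORC1 and is described as a FoxO target. It had 76.62, 72.65 and 100.38 FPKM in OGD with Wnt3a plus Rspondin 1, 91.30, 81.23 and 91.37 in OGD, and 28.27, 33.30 and 30.96 in control. No library of either OGD group came near the control range for either gene, and the OGD groups overlapped each other. In OGD against control, Txnip rose by 1.70 ± 0.08 on the log2 scale, or 3.24-fold (adjusted p = 1.67e-09), and 4.3% of tested genes had a larger rise. Sesn3 rose by 1.43 ± 0.11, or 2.69-fold (adjusted p = 1.32e-07), with a larger rise in 7.2% of tested genes. For Foxo1 that share was 8.2%.

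Counted together, 7 of the 9 genes passed the threshold of 0.05 in OGD against control, all of them higher. Over all tested genes 73.1% passed, 36.3% higher and 36.8% lower, so a call alone sets a gene little apart in this comparison. Rises of at least 2-fold that passed the threshold were found for Foxo1, Foxo4, Txnip and Sesn3, which are 4 of the 9, against 14.2% of all tested genes. The median log2 change of the 9 genes was 0.59, against 0.02 over all tested genes. Because the 9 were chosen with earlier results of these data known, these contrasts with all tested genes are description only. These 7 calls were made under each of the 15 alternative settings tried, which included leaving out each library in turn. The neuron markers fell and the astrocyte and microglia markers rose in the same libraries, as given above.

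The order of the 9 levels was rearranged between groups. Txnip and then Sesn3 led in all 3. In OGD with Wnt3a plus Rspondin 1, Foxo1 stood alone after Txnip and Sesn3, at 27.2 ± 1.91 FPKM (mean ± SD, n = 3), above Foxo4, Irs2 and Foxo3, which overlapped. In OGD, Irs2, Foxo4, Foxo3 and Foxo1 formed a group between 18.8 and 20.2 FPKM on average in which each overlapped the next. In control, Irs2 and Foxo3 overlapped and were followed by Foxo1 and Insr, which were each separate from their neighbours. Irs1, Igf1r and Foxo4 closed the order in control, with each overlapping the next. Foxo4 averaged 18.8 ± 1.36 FPKM in OGD with Wnt3a plus Rspondin 1, 19.8 ± 1.59 in OGD and 3.74 ± 0.243 in control, where it was the lowest of the 9. Insr, Irs1 and Igf1r stayed at or below 7.18 FPKM on average in all 3 groups.

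Wnt3a plus Rspondin 1 was set against OGD alone to ask which genes the proteins regulate under deprivation. Among the 9 genes, 1 passed the threshold, Foxo1, which was higher. Of all tested genes 0.197% passed, 0.175% higher and 0.0219% lower. Foxo1 was higher in 3 of 3 libraries with the proteins than in every OGD library, by 0.52 ± 0.09 on the log2 scale, or 1.43-fold, with a 95% interval of 0.32 to 0.71 (adjusted p = 0.0404). It was 23rd among all tested genes by unadjusted p, which was 6.84e-05. The authors' deposited table gives a log2 change of 0.54 and an FDR of 0.00191 for Foxo1.

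The size of this Foxo1 difference varied little with the processing, but its call did. The log2 change was 0.48 to 0.58 over 15 alternatives and the adjusted p 0.000299 to 0.246, with 5 of the 15 past the threshold. Leaving out OGD replicate 1 kept the call (adjusted p = 0.00448). Leaving out any other single library ended it, with an adjusted p of 0.0785, 0.0703 and 0.0672 without control replicates 1, 2 and 3. It was 0.172 and 0.133 without OGD replicates 2 and 3, and 0.147, 0.0827 and 0.246 without replicates 1, 2 and 3 of OGD with Wnt3a plus Rspondin 1. Among the marker lists, only the astrocyte genes Gja1 and Glul passed in this comparison, Gja1 higher by 0.38 on the log2 scale and Glul lower. None of the 12 neuron markers passed.

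The other 8 genes did not pass in OGD with Wnt3a plus Rspondin 1 against OGD, and their intervals bound how far they could have moved. The log2 change was -0.16 for Foxo3, with an interval of -0.41 to 0.09, and -0.07 for Foxo4, with an interval of -0.28 to 0.13. For Txnip it was 0.11 with an interval of -0.06 to 0.29, and for Sesn3 -0.10 with an interval of -0.34 to 0.14. The widest intervals were those of Irs1 and Igf1r, which were low in FPKM, as was Insr with a narrower interval. Insr stood at 0.00 (-0.26 to 0.27), Igf1r at -0.08 (-0.43 to 0.26) and Irs1 at -0.20 (-0.50 to 0.11). Irs2 was at -0.20 (-0.40 to -0.00), an interval that ended just below 0, with an unadjusted p of 0.0455 and an adjusted p of 0.865. The median log2 change of the 9 genes was -0.08.

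Set against control, OGD with Wnt3a plus Rspondin 1 gave calls for 6 of the 9 genes, all higher, where 72.6% of all tested genes passed and 36.6% were higher. These values share their control libraries with the comparison of OGD alone and are given only beside it. Foxo4 was 4.68-fold higher (log2 change 2.23 ± 0.10), against 4.92-fold with OGD alone. Foxo1 was 3.67-fold higher (1.88 ± 0.09), against 2.56-fold with OGD alone. Txnip was 3.51-fold higher (1.81 ± 0.08), against 3.24-fold with OGD alone, and Sesn3 2.51-fold higher (1.33 ± 0.11), against 2.69-fold with OGD alone. Foxo3 was 1.35-fold higher (adjusted p = 0.00504) and Irs2 1.25-fold (adjusted p = 0.00742). Irs1, at a log2 change of 0.26 (adjusted p = 0.109), passed in OGD alone but not here, and the direct comparison of the 2 OGD groups did not separate them. It passed without control replicate 2, at 0.41, and without replicate 2 of OGD with Wnt3a plus Rspondin 1, at 0.37, and its adjusted p ran from 0.0253 to 0.37 over the alternatives. Insr (adjusted p = 0.359) and Igf1r (adjusted p = 0.188) did not pass.

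**Figure D2:**
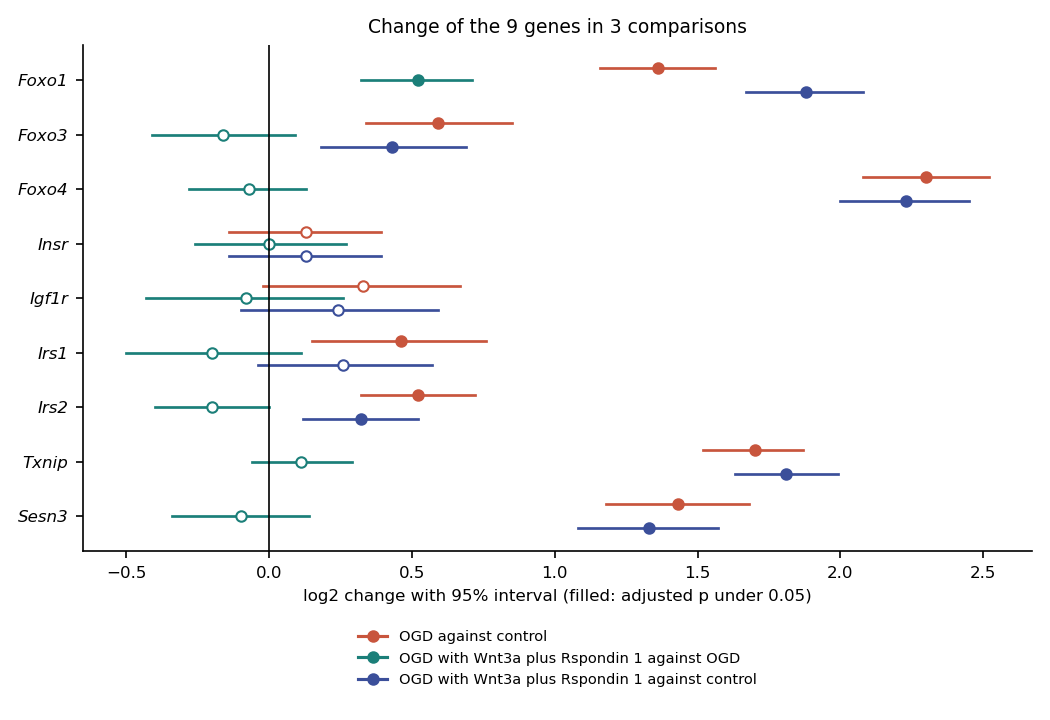
Log2 change of each gene with its 95% interval in 3 comparisons, with the first-named group over the second. Filled points passed an adjusted p of 0.05 and open points did not. In OGD against control Foxo4 lies farthest right at 2.30, and in OGD with Wnt3a plus Rspondin 1 against OGD the point of Foxo1 at 0.52 is the filled one.

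The make-up of the FoxO transcripts also differed. The sum of Foxo1, Foxo3 and Foxo4 was 63.6 ± 5.68 FPKM in OGD with Wnt3a plus Rspondin 1, 58.1 ± 3.37 in OGD and 22.8 ± 0.115 in control (SD, n = 3). Foxo3 made up 27.6 ± 2.06% of the sum with the proteins, 33.6 ± 1.72% in OGD and 53.3 ± 2.51% in control, where it exceeded the other two together. Foxo4 made up 29.5 ± 1.5% with the proteins, 34.1 ± 2.56% in OGD and 16.5 ± 0.987% in control. Foxo1 made up 42.9 ± 1.95% with the proteins, 32.3 ± 1.1% in OGD and 30.2 ± 1.85% in control, so OGD alone was near control for its share and the libraries with the proteins were above both. Foxo6, the remaining family member, which is enriched in the brain, is not in these sums and shares and went the other way. It had 2.82 ± 0.47 FPKM with the proteins, 2.56 ± 0.251 in OGD and 11.2 ± 0.853 in control, a log2 change of -2.21 ± 0.14 in OGD against control (adjusted p = 1.72e-08). In control Foxo6 was thus near Foxo3, at 12.1 FPKM, and counting it would lower the control share of Foxo3 most.

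**Figure D3:**
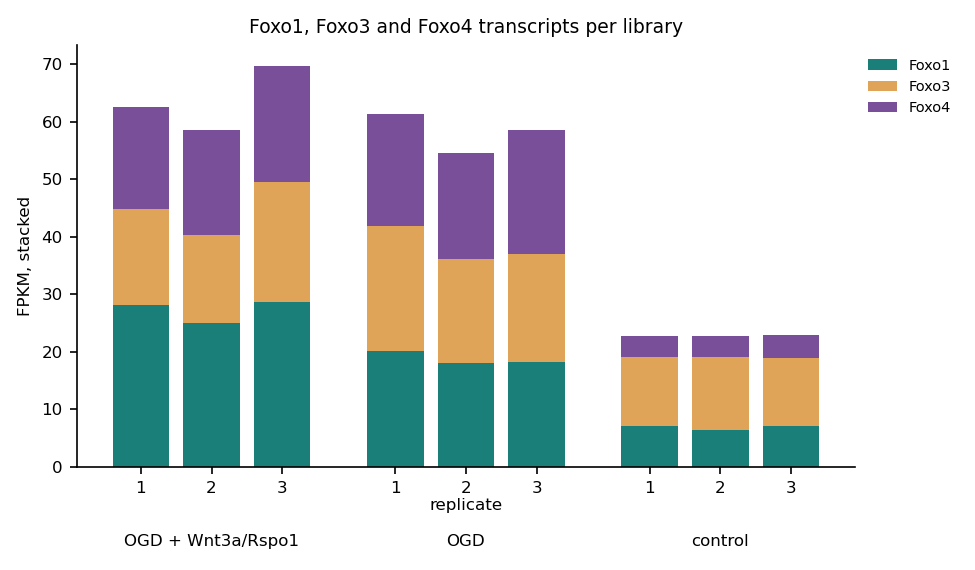
Stacked FPKM of Foxo1, Foxo3 and Foxo4 in each of the 9 libraries, by group and replicate. The bars of both OGD groups reach 54.6 to 69.7 FPKM, while control bars reach 22.7 to 22.9 and are mostly Foxo3.

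Ratios within a library do not depend on how libraries are scaled, and 4 were tested over both OGD groups against control. The ratio of Foxo3 to Foxo1 was 0.597, 0.608 and 0.729 in OGD with Wnt3a plus Rspondin 1, 1.08, 1.01 and 1.04 in OGD, and 1.68, 2.00 and 1.64 in control. The ratio of Foxo4 to Foxo1 was 0.631, 0.730 and 0.709 in OGD with Wnt3a plus Rspondin 1, 0.965, 1.02 and 1.19 in OGD, and 0.509, 0.561 and 0.564 in control. For each ratio the 3 groups did not overlap, with a stepwise order for the first and the highest values in OGD alone for the second. The 6 libraries with OGD pool 2 groups that differ in treatment, so a pooled difference is that of neither group. Over the 6 libraries with OGD against the 3 controls, Foxo3 to Foxo1 was lower by a log2 difference of -1.11 and Foxo4 to Foxo1 higher by 0.65. Both had an exact two-sided permutation p of 0.0238, the smallest that this design allows, and 0.0476 after Benjamini-Hochberg adjustment over the 4 ratios. With any library left out, both ratios kept their direction and again gave the smallest p that the remaining libraries allow. This had to be so, because the libraries with OGD and the controls did not overlap, and it says nothing of stability. That smallest p is too large to pass after adjustment where only these 2 of the 4 ratios reach it. Groups of 3 against 3 cannot give an exact p below 0.1, which is what both ratios gave for OGD with Wnt3a plus Rspondin 1 against OGD, at log2 differences of -0.70 and -0.61. OGD alone against control also gave an exact permutation p of 0.1 for both (adjusted p = 0.133), at log2 differences of -0.76 and 0.95.

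The ratio of Irs2 to Irs1 averaged 2.81 over the 6 libraries with OGD and 2.71 over control, a log2 difference of 0.06 (exact permutation p = 0.643). The ratio of Insr to Igf1r averaged 1.34 with OGD and 1.5 in control, a log2 difference of -0.16 (exact permutation p = 0.119, adjusted p = 0.159). For Irs2 to Irs1 the libraries of all 3 groups overlapped. For Insr to Igf1r they were 1.58, 1.23 and 1.32 in OGD with Wnt3a plus Rspondin 1, 1.3, 1.4 and 1.25 in OGD, and 1.5, 1.43 and 1.56 in control. OGD alone lay below control without overlap, and the libraries with the proteins overlapped both. Without replicate 1 of OGD with Wnt3a plus Rspondin 1, the ratio of Insr to Igf1r passed at a log2 difference of -0.20 (exact permutation, adjusted p = 0.0476), and its adjusted p ran from 0.0476 to 0.381 over 10 alternatives.

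The genes that surround the 9 in the pathway were taken from 6 lists, and the values below are log2 changes of OGD against control. List genes counted as risen or fallen passed the threshold, as did 36.3% of all tested genes higher and 36.8% lower. Among ligands and binding proteins of the insulin and IGF family, 4 of 7 tested genes rose and 3 fell, with a median of 0.99, and Ins1 and Ins2, the insulin genes of the rat, had no reads. Igf2, a growth factor ligand, rose by 2.82 ± 0.29 but stayed low, at 1.38 FPKM in OGD with Wnt3a plus Rspondin 1, 1.38 in OGD and 0.19 in control. Igfbp5, a secreted IGF-binding protein, rose by 1.71 ± 0.10, with 476 FPKM in OGD with Wnt3a plus Rspondin 1, 424 in OGD and 122 in control. The binding protein genes Igfbp3 and Igfbp4 fell by 1.83 and by 0.59. The ligand gene Igf1 also fell, by 1.15 ± 0.36 (adjusted p = 0.0106). It was low, at 0.577 FPKM in OGD with Wnt3a plus Rspondin 1, 0.587 in OGD and 0.99 in control, and its OGD libraries overlapped the controls. Ligands and binding proteins thus moved in both directions around receptors that did not pass the test.

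Among adaptors, PI3-kinase, AKT and SGK genes, 15 of 24 fell and 6 rose, against 36.8% lower and 36.3% higher over all tested genes. The median was -0.40. The largest falls were in Grb10 (-2.54 ± 0.14) and Grb14 (-2.37 ± 0.15), adaptors that bind the insulin receptor and restrain it. The largest rises were in Gab1 (1.47 ± 0.08), a docking protein that recruits PI3-kinase, and Inppl1 (1.38 ± 0.10), which encodes the lipid phosphatase SHIP2. Irs1 and Irs2 rose, while most of this list fell.

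Among regulators and partners of FoxO proteins, 13 of 24 fell and 5 rose, against 36.8% lower and 36.3% higher over all tested genes. The median was -0.28. Without OGD replicate 1 the number that rose was 8. Ywhah, a 14-3-3 protein of the family that holds phosphorylated FoxO in the cytoplasm, fell by 2.27 ± 0.10, and Foxo6 fell as given above. Sirt2, a deacetylase that acts on FoxO proteins, rose by 1.45 ± 0.07 and the kinase gene Cdk2 by 1.15 ± 0.10.

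Among genes described as FoxO targets, 23 of 41 rose and 10 fell, against 36.3% higher and 36.8% lower over all tested genes. The median was 0.31 against 0.02 over all tested genes. This list too was chosen with earlier results known, so the contrast is description only. The largest rises were in Pdk4, a kinase that shuts off pyruvate dehydrogenase, at 5.15 ± 0.18, and Fbxo32, the ubiquitin ligase atrogin-1 of muscle wasting, at 3.05 ± 0.18. Fbxo32 had 15 FPKM in OGD with Wnt3a plus Rspondin 1, 13.5 in OGD and 1.54 in control. Klf2, a transcription factor gene, fell by 3.06 ± 0.30 and Insig1, a brake on sterol synthesis, by 2.97 ± 0.10. These genes have other regulators as well, and the counts say nothing of FoxO binding.

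In the list of thioredoxins, alpha-arrestins and glucose sensing, 7 of 15 rose and 5 fell, with a median of 0.19. Without control replicate 2 the number that fell was 3. Arrdc3, an alpha-arrestin related to Txnip, rose by 1.29 ± 0.15 and Mxd4, a transcription factor gene of the MAX network, by 1.28 ± 0.08. Another alpha-arrestin, Arrdc1, fell by 1.36 ± 0.11, and the thioredoxin reductase gene Txnrd3 fell by 0.46 ± 0.09. Among sestrins, AMPK, mTORC1 and its nutrient sensors, 18 of 46 rose and 15 fell, with a median of -0.01. Ddit4l, an inhibitor of mTORC1 signalling, rose by 1.72 ± 0.09, and Castor1, an arginine sensor, by 1.65 ± 0.28. Camkk2, a kinase that activates AMPK, fell by 2.43 ± 0.14 and Prkaa2, a catalytic subunit of AMPK, by 1.91 ± 0.17. Both counts of this list were near the shares over all tested genes, 36.3% higher and 36.8% lower, and Sesn3 was higher.

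In OGD with Wnt3a plus Rspondin 1 against OGD, no gene of the 6 lists was higher past the threshold, and Glul was lower. Over all tested genes only 0.175% were higher and 0.0219% lower, so the absence of a higher gene says little about the lists. Glul, glutamine synthetase, is described as a FoxO target and is also a marker of astrocytes. It had 261 ± 3.72 FPKM in OGD with Wnt3a plus Rspondin 1, 387 ± 26.1 in OGD and 466 ± 5.95 in control (SD, n = 3), a log2 change of -0.59 ± 0.07 against OGD (adjusted p = 0.00293). Foxo1 was higher in the same libraries in which Glul was lower.

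**Figure D4:**
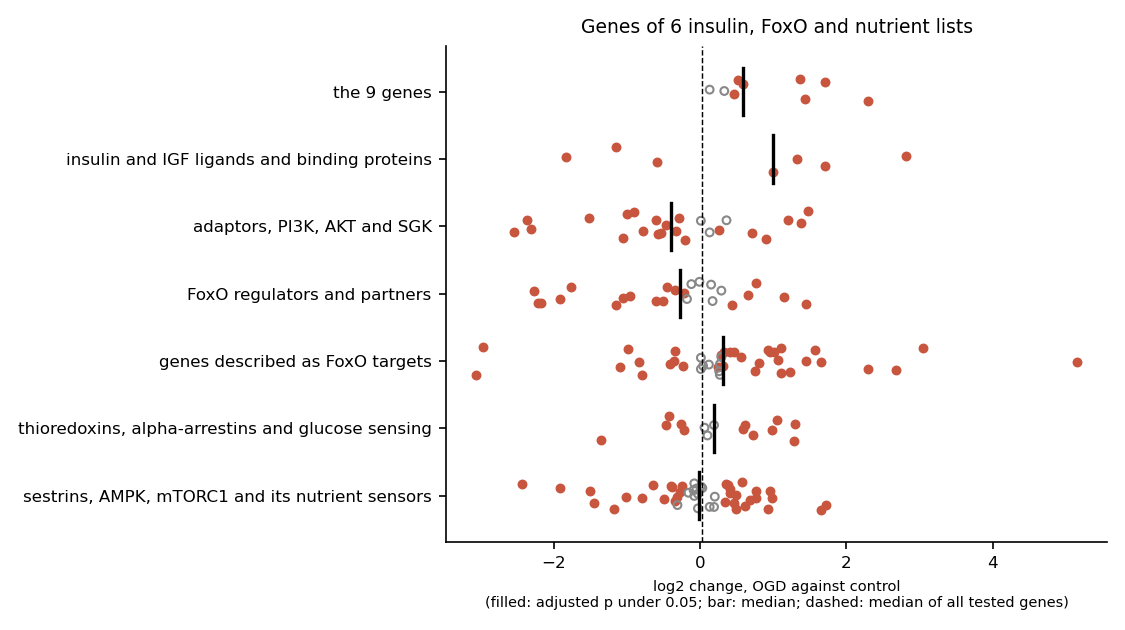
Log2 change in OGD against control of the 9 genes (top row) and of the tested genes of 6 lists, 1 point per gene, filled where the adjusted p was under 0.05. Vertical bars are the medians and the dashed line is the median of all tested genes, 0.02. The bars run from -0.40 for adaptors, PI3-kinase, AKT and SGK to 0.99 for ligands and binding proteins, with the 9 genes at 0.59.

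The genes whose profiles lay nearest to each of the 9 were found by the Euclidean distance between centred log2 CPM values over the 9 libraries, among 11491 genes. For Foxo1 they were Zfp217 at 0.33 and Tuba1c at 0.35. Zfp217 averaged 4.58 FPKM in OGD with Wnt3a plus Rspondin 1, 3.30 in OGD and 1.15 in control, the same stepwise order as Foxo1. For Foxo4 they were Gpnmb and Tcp11l2, both at 0.25, and for Foxo3 Ptcd1 and Pdzrn3, both at 0.23. For Txnip they were Ddit4l at 0.21, which also stands in the list of sestrins and mTORC1 genes, and Galm at 0.22. For Sesn3 they were Sox6 at 0.20 and Sash1 at 0.23, and for Irs2 Rnf169 at 0.12 and Mxd1 at 0.22. Irs1 had Tcp11l1 at 0.22 and Crebbp at 0.25, which is a coactivator in the list of FoxO partners. Insr had Pan3 at 0.19 and Zfp652 at 0.23, and Igf1r had Adamts1 and Tecpr1, both at 0.31. A small distance is easily reached by genes that vary little, such as Insr, and the distances are a description of 9 libraries.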

How the data were processed

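RNA was sequenced from 9 libraries, 3 per group, built with Illumina's TruSeq RNA kit, as the labels' protocols state. The authors deposited tables of whole-number counts per gene, not normalized, and of FPKM values, counts scaled by gene length and library total, per the file headers. The deposited log2 ratios, p-values and FDR of the authors' comparisons were used only where the authors' deposited table is named. Bowtie 0.12.2 and builds of the mouse, mm8 and mm9, appear in the submitters' processing notes, although the identifiers are rat Ensembl genes. Not given in the sources used here are the counter, its use of strand, its treatment of reads shared by related genes, the rat build and the annotation. Overlapping and antisense genes can therefore not be told apart.

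Libraries were assigned by column name and sample title. The column names write WR where the titles write RW, and they were matched by that pair of letters and the replicate number. Counts were tested with edgeR 4.0.16 in R 4.3.3 (filterByExpr, minimum count 10 in 3 libraries and total 15; TMM; robust quasi-likelihood, 6 residual degrees of freedom) in a fit of all 9 libraries. Benjamini-Hochberg adjustment ran over 13693 genes, with a threshold of 0.05. Log2 changes are the first-named group over the second, with SE and 95% intervals from that fit. Within-library FPKM ratios were tested by exact permutation (scipy 1.17.1). Levels are means ± SD. The pathway lists name from each list the 2 largest rises and the 2 largest falls past the threshold with at least 1 FPKM in a group. Igf1, below that level, is named as well. The 9 genes and the lists were chosen with earlier results of these data known. Alternatives were RLE factors, library totals, no filter, DESeq2 1.42.0, a replicate block, fits of 6 libraries, ratios of counts and leaving out each library. Protein features were not analysed here, and 1 gene of a pathway list is not reported here. Counts limit the precision to counting error and the spread between libraries.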

Additional observations from a re-analysis of the deposited data

How the results depend on the processing

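Of the 9 genes, Foxo1, Foxo3, Foxo4, Irs1, Irs2, Txnip and Sesn3 passed in OGD against control under all 15 alternatives, and Insr under none. For Igf1r in OGD against control, library totals gave a log2 change of 0.41 (adjusted p = 0.036), and leaving out a library gave 0.19 to 0.47. For Irs1 in OGD with Wnt3a plus Rspondin 1 against control, library totals gave 0.37 (adjusted p = 0.0319), and leaving out a library gave 0.15 to 0.41. Library totals moved the median of all genes in that comparison to 0.14, against 0.03 with TMM, and in OGD against control to 0.1, against 0.02 with TMM. In the thioredoxin list, 3 genes fell under library totals and 3 to 5 when a library was left out. In the list of FoxO regulators 5 to 8 rose when a library was left out.

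For Foxo1 in OGD with Wnt3a plus Rspondin 1 against OGD, the log2 change was 0.50 with RLE factors (adjusted p = 0.0558), 0.52 with only the 6 libraries compared (adjusted p = 0.0956) and 0.48 to 0.58 when a library was left out. It passed with library totals, without a filter, with DESeq2, with the replicate block and without OGD replicate 1. Counts in that comparison depend on the processing. In edgeR, 24 genes were higher and 3 lower, against 60 higher and 39 lower in DESeq2, 12 higher with only the 6 libraries compared, 5 lower with RLE factors and 7 lower without a filter. Leaving out a library gave 10 to 38 higher and 2 to 11 lower. OGD replicate 1 gave the highest counts when left out, and OGD replicate 2 and replicate 2 of OGD with Wnt3a plus Rspondin 1 the lowest for genes higher, where leaving out its replicate 3 gave 13. Leaving out its replicate 1 gave 5 lower. A replicate block gave 43 higher and 22 lower, and it changed no call of the 9 genes. Same-numbered libraries correlated at -0.07 to 0.27 in their deviations from the group means, and differently numbered ones at -0.32 to 0.28. Between the 2 OGD groups, same-numbered pairs were at 0.23, 0.07 and 0.27, and the others at -0.24 to -0.02. The labels state no pairing, so the main fit used none. Whether the numbers pair the libraries of the 2 OGD groups was not tested. For Foxo3 to Foxo1, the log2 ratio in both OGD groups minus that in control was -1.19 to -1.02 when a library was left out. For Foxo4 to Foxo1 this difference was 0.55 to 0.73. The smallest exact permutation p that 5 against 3 or 6 against 2 libraries allow is 0.0357 or 0.0714, and it was reached by both each time. Adjusted, that is 0.0714 or 0.143 where only these 2 ratios reach it, so these values say nothing of stability. The same difference for Insr to Igf1r was -0.20 to -0.13. The cause of the other differences was not tested. The intervals were widest for Igf1r and Irs1.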
